A study of Homo sapiens with 12 samples.

Results

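The 10 keratin genes described here were KRT5, KRT6A, KRT7, KRT8, KRT15, KRT17, KRT18, KRT19, KRT23 and KRT80. They were taken as a list of keratins of simple and stratified epithelium, chosen with earlier results of these data known. Matched by symbol to the gene identifiers, they are 10 of 60617 genes in the files and 10 of the 54 genes for type I and type II keratins. Counts among the 10 that are set beside shares of all genes are therefore descriptions and not tests of the list. All 10 had enough reads to be tested. RNA was sequenced from SNU308, an established human gallbladder cancer cell line that the labels give as wild type, in 12 samples that fell into 3 groups of 4. Cells received a non-targeting control siRNA (NTC), siCEACAM6#2 or siCEACAM6#3 at 25 nM, and RNA was taken after 3 days. Every group was thus transfected, and there was no untransfected group. Both active siRNAs were directed against CEACAM6, a cell surface adhesion molecule anchored to the membrane by a lipid. The knockdown was transient, and all samples came from 1 cell line.

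Keratins are the intermediate filament proteins of epithelial cells. A type I (acidic) chain pairs with a type II (basic) chain, and the pairs assemble into filaments that are anchored at desmosomes and hemidesmosomes. Simple epithelia such as bile duct and gallbladder lining are known for KRT8, KRT18, KRT7 and KRT19, the basal layer of stratified epithelium for KRT5 and KRT15, and wounded or stressed epithelium for KRT6A and KRT17.

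The target sequences of the siRNAs are shown because the 2 siRNAs differed in what happened to KRT15. The letters run 5′ to 3′ on the messenger strand, and the capitals mark the 7 bases that pair with the seed of the guide strand (its bases 2 to 8).
siCEACAM6#2: cagccatgcaatgCCAAATAa
siCEACAM6#3: ctcctaatagtcaTACTAGTa
In GRCh38 the first target was at chr19:41771369-41771389 and the second at chr19:41771611-41771631, both on the plus strand and both in the 3′ untranslated part of exon 6 of 6 of CEACAM6. Only chromosome 19 was searched. The target of siCEACAM6#3 had a second exact match there, at chr19:42799318-42799338 on the minus strand, where GENCODE has 0 genes. The 7-base match CCAAATA was found in the 3′ untranslated sequence of 1 of the 10 keratins, KRT80, and of 15.6% of 13745 tested genes with such a sequence. TACTAGT was found in 0 of the 10 keratins and in 6.64% of those genes, and among the other tested keratins it was found in KRT4. Only the transcript strand of the canonical GENCODE transcript was searched, and a match is a description of letters and not of a site in use.

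The libraries held between 21799476 and 22059456 estimated counts, so they were of nearly equal depth. CEACAM6 was at 523, 568, 595 and 618 CPM (counts scaled to library size) in the NTC samples, at 353, 343, 285 and 328 CPM with siCEACAM6#2 and at 423, 386, 424 and 437 CPM with siCEACAM6#3, and thus fell to 56.7% of NTC with siCEACAM6#2 (adjusted p = 2.71e-05) and to 72.5% with siCEACAM6#3 (adjusted p = 0.0151, limma-voom). The epithelial markers EPCAM, CDH1, ESRP1, CLDN4 and CLDN7 were between 59.3 and 482 TPM (transcript abundance scaled by length and library) on average in NTC. Of the biliary markers, CFTR was nearly absent at 0.613 TPM, while SOX9 was at 9.63 TPM and ANXA4 at 75.6 TPM. The defining genes of fibroblasts, leukocytes and endothelium, COL1A2, COL3A1, PTPRC, CD3E, PECAM1 and KDR, were all at or under 0.198 TPM. The share of counts from mitochondrial genes was 11.8 to 12.9% in NTC, 12.2 to 13.3% in the siCEACAM6#2 samples and 12.5 to 15.3% in the siCEACAM6#3 samples, where replicate 2 stood highest.

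Levels of different genes were compared in TPM, which divides by transcript length. KRT19, a type I keratin of simple epithelium that has almost no tail domain, was the most abundant of the 10 in NTC at 3224 ± 103 TPM (SD, n = 4), which put it at rank 28 of all genes. KRT7, a type II chain of ducts and glands, followed at 1977 ± 136 TPM, and KRT8, the type II chain of all simple epithelia, at 1531 ± 57.1 TPM. KRT6A and KRT18 were next at 1044 ± 29.1 and 1042 ± 41.1 TPM, and these neighbours could not be ordered. KRT17 was at 312 ± 39.4 TPM and KRT15 at 113 ± 9.42 TPM. KRT80, a keratin linked to desmosomes, was at 17.9 ± 0.386 TPM. KRT23 was at 2.87 ± 0.274 TPM and KRT5 at 2.00 ± 0.386 TPM. KRT5, the usual type II partner of the basal layer, was therefore nearly absent although KRT15 and KRT17 were well expressed.

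**Figure D1:**
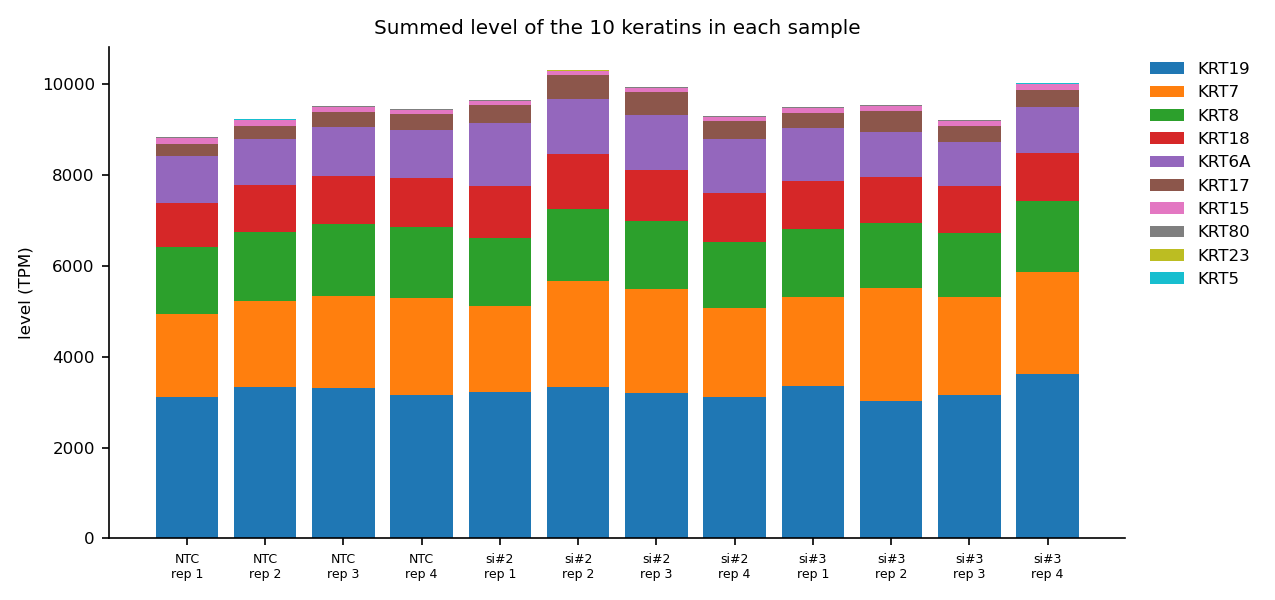
Summed level of the 10 keratins (TPM, vertical axis) in each of the 12 samples, with 1 colour per keratin. KRT19, KRT7, KRT8, KRT6A and KRT18 make up most of every bar, and the bars run from 8844 TPM in NTC replicate 1 to 10307 TPM in siCEACAM6#2 replicate 2.

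The 10 keratins together took 0.992 to 1.19% of all counts. They made up 84.0 to 90.0% of the TPM of all 54 keratin genes. KRT19 held 34.8 ± 1.14% of the summed TPM of the 10 in NTC, 32.9 ± 0.672% under siCEACAM6#2 and 34.3 ± 1.89% under siCEACAM6#3 (SD, n = 4). KRT17 held 3.36 ± 0.325%, 4.66 ± 0.541% and 4.04 ± 0.644% in the same order. Within the 10, type I and type II chains were close to balance. The summed TPM of the 5 type I members KRT15, KRT17, KRT18, KRT19 and KRT23 was 0.936 to 1.07 times that of the 5 type II members in the 12 samples. Over all 54 keratin genes the ratio was 0.886 to 0.995, so type II chains were slightly ahead in every sample.

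The first comparison asked what siCEACAM6#2 did to the keratins. KRT17 and KRT6A, the pair known from wounded epithelium, rose in the cells with siCEACAM6#2 against NTC. With limma-voom the other 8 did not pass, while DESeq2 called 3 members, 2 higher and 1 lower (KRT15). Over all tested genes DESeq2 called 534. In bulk RNA, more cells that carry a transcript and more of it per cell cannot be told apart. The 2 of 10 called members stand beside 1.25% of the 17620 genes tested (221 genes, 0.613% higher and 0.641% lower), and beside 2.3% of the 1872 tested genes with a mean of at least 100 CPM. The groups did not overlap in 3 of 10 members, KRT6A, KRT15 and KRT17, beside 10.8% of all tested genes. The median log2 fold change was 0.05 over the 10 keratins and 0.00017 over all tested genes.

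KRT17 is a type I keratin that is switched on in injured skin and in many carcinomas. It was at 270.6, 295, 347 and 362 CPM in the NTC samples and at 429, 552, 547 and 403 CPM with siCEACAM6#2. Each siCEACAM6#2 sample was above every NTC sample, and replicates 2 and 3 were the highest of the 4. The log2 fold change was 0.59 (SE 0.13, adjusted p = 0.0286), a level 151% of NTC. The same replicates 2 and 3 had the largest mitochondrial shares of that group, 13.3 and 13.2%, and the part of this in the level of KRT17 was not tested. Replicates 1 and 4 had shares of 12.3 and 12.2%. In fits that left out 1 of the 12 samples the log2 fold change stayed between 0.52 and 0.68. The call held in 7 of the 12 and was lost without NTC replicate 1, 2 or 3 and without siCEACAM6#2 replicate 2 or 3. It was also lost in fits of log2 TPM.

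KRT6A is a type II keratin of hair follicles and healing wounds that pairs with KRT16 and KRT17. It was at 1709, 1665, 1882 and 1776 CPM in the NTC samples and at 2344, 2094, 2069 and 1965 CPM with siCEACAM6#2. All 4 siCEACAM6#2 samples were above all 4 NTC samples, and here replicate 1 was the highest. The log2 fold change was 0.27 (SE 0.06, adjusted p = 0.0369), which is 120% of NTC. It ranged from 0.22 to 0.30 when 1 sample was left out, and the call held in 5 of these 12 fits. It was lost without any single one of the 4 NTC samples and without siCEACAM6#2 replicate 1, 2 or 3, and in fits of log2 TPM.

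**Figure D2:**
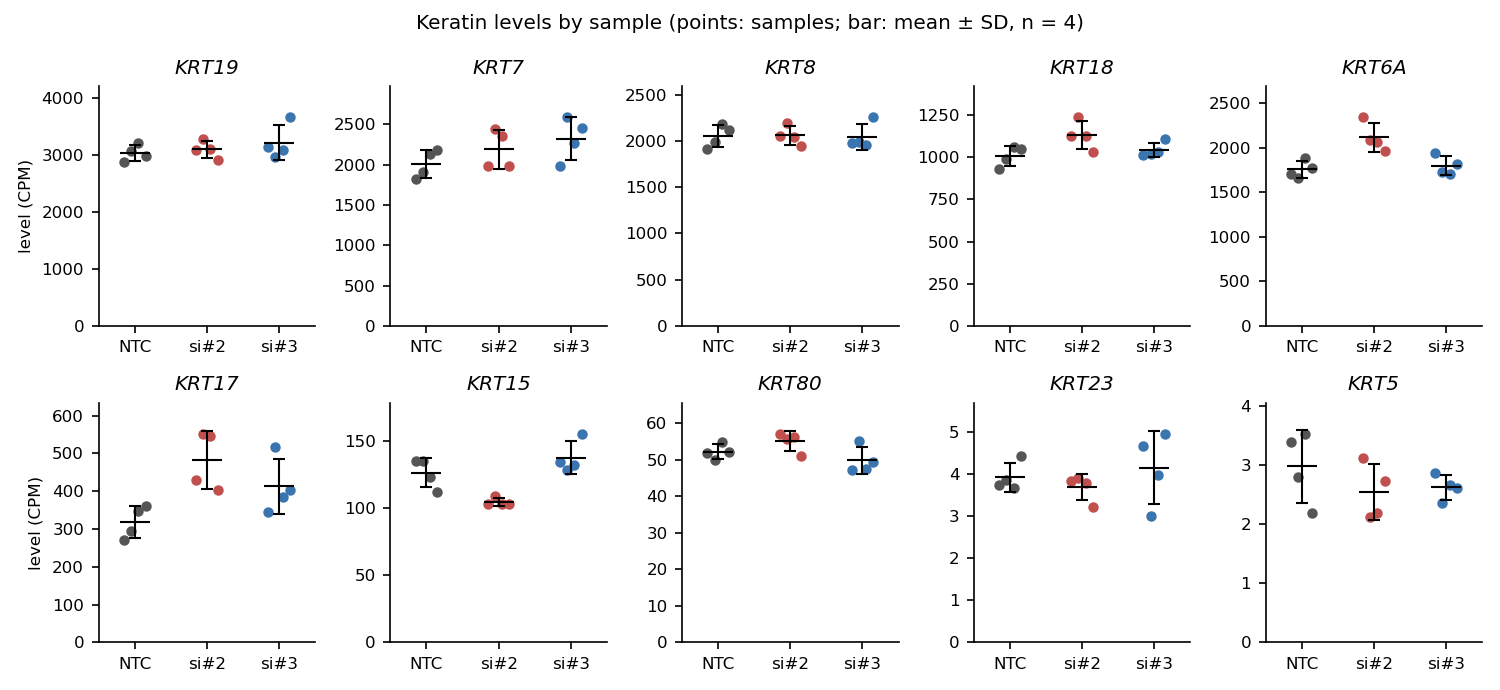
CPM (vertical axes, each from 0) of the 10 keratins in the 4 samples of each group (points in replicate order), with the mean and SD as bars; si#2 and si#3 stand for siCEACAM6#2 and siCEACAM6#3. The siCEACAM6#2 points lie above all NTC points for KRT17 (403 CPM or more against 362 or less) and KRT6A (1965 CPM or more against 1882 or less), and below them for KRT15 (109 CPM or less against 112 or more).

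KRT15, a type I keratin of basal cells and of the stem cell region of the hair follicle, was at 135, 135, 123 and 112 CPM in NTC and at 103, 109, 103 and 103 CPM with siCEACAM6#2. All 4 siCEACAM6#2 samples were below the lowest NTC sample, by a small margin. The log2 fold change was -0.27 (SE 0.07), and it did not pass over all genes with limma-voom (adjusted p = 0.0655), while it was called lower by DESeq2 (adjusted p = 0.00959) and by limma-voom with sample weights (adjusted p = 0.0110), in a range of 0.00959 to 0.228 over all alternatives. KRT18, the type I partner of KRT8, had a log2 fold change of 0.17 (SE 0.06, adjusted p = 0.194). It was at 931 to 1058 CPM in NTC and at 1033 to 1237 CPM with siCEACAM6#2, so the groups overlapped. The remaining members were closer to NTC or less precise. KRT7 had a log2 fold change of 0.12, KRT80 of 0.08, KRT19 of 0.03 and KRT8 of 0.01. The low genes KRT23 and KRT5 had -0.09 and -0.22, with 95% intervals of -0.41 to 0.23 and of -0.58 to 0.14. KRT5 rested on 224 to 264 counts per group of 4 samples.

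The second comparison set siCEACAM6#3 against the same NTC samples, so the comparisons with NTC share their controls. With this siRNA 0 of 10 keratins passed the limma-voom test, beside 0.0681% of all genes tested (12 genes) and 0.267% of those with a mean of at least 100 CPM. The same count was 0 with edgeR and with DESeq2, and 2 members had an unadjusted p under 0.05, beside 12.5% of tested genes. The groups did not overlap in 0 of 10 members, beside 6.28% of tested genes. The median log2 fold change of the 10 was 0.06, beside -0.0032 over all genes.

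The 2 members with an unadjusted p under 0.05 were KRT17 and KRT7. KRT17 was at 346, 516, 384 and 404 CPM with siCEACAM6#3. One sample was under the highest NTC sample and the other 3 were above it, and replicate 2 stood highest. Its log2 fold change was 0.37 (SE 0.13, adjusted p = 0.254), with a 95% interval of 0.10 to 0.63. KRT7 was at 1824, 1902, 2135 and 2179 CPM in NTC and at 1985, 2586, 2263 and 2459 CPM with siCEACAM6#3. Its log2 fold change was 0.21 (SE 0.09, adjusted p = 0.355), with an interval of 0.02 to 0.39. Replicate 2 of siCEACAM6#3 was the highest of all 12 samples for KRT7 and also had the largest mitochondrial share, 15.3%, and the part of this was not tested. Without that sample the log2 fold changes were 0.15 for KRT7 and 0.25 for KRT17, and neither passed. KRT6A was at 1942, 1734, 1709 and 1819 CPM with siCEACAM6#3, a log2 fold change of 0.03, and KRT8, KRT18, KRT19 and KRT80 lay between -0.07 and 0.08. KRT15 had 0.12, KRT23 0.06 and KRT5 -0.16. The 95% intervals of KRT6A and KRT8, -0.09 to 0.16 and -0.13 to 0.12, bound what could have been missed in these abundant genes.

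The third comparison, siCEACAM6#3 against siCEACAM6#2, tested directly whether the siRNAs differed. With limma-voom KRT15 was the only member past the threshold, and it was higher with siCEACAM6#3, while DESeq2 called 2 members, KRT15 higher and KRT6A lower. Over all tested genes DESeq2 called 556. The 1 of 10 called with limma-voom stands beside 1.47% of all tested genes (259 genes, with 0.84% higher). It also stands beside 2.94% of those with a mean of at least 100 CPM. The groups did not overlap in 2 of 10 members, KRT15 and KRT6A, beside 6.69% of all tested genes. The median log2 difference was 0.02 for the keratins and -0.0043 over all genes.

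KRT15 was at 134, 129, 132 and 155 CPM with siCEACAM6#3 and at 109 CPM or less in every siCEACAM6#2 sample. The 4 siCEACAM6#3 samples overlapped with NTC and all lay above siCEACAM6#2. The log2 difference was 0.39 (SE 0.07, adjusted p = 0.00900), or 131% of the level with siCEACAM6#2. It stayed called in all 12 fits that left out 1 sample, between 0.33 and 0.42, and was not called in fits of log2 TPM. For KRT6A the log2 difference was -0.23 (SE 0.06, adjusted p = 0.0648), and all 4 siCEACAM6#3 samples were below all 4 siCEACAM6#2 samples. KRT17 had a log2 difference of -0.23 (SE 0.13, adjusted p = 0.463) with a 95% interval of -0.49 to 0.04, so the rise of KRT17 with siCEACAM6#2 was not shown to differ from its value with siCEACAM6#3. KRT80 had -0.15 (adjusted p = 0.301) and KRT18 -0.11 (adjusted p = 0.413). KRT7, KRT8, KRT19, KRT23 and KRT5 had differences between -0.01 and 0.15, none past the threshold.

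**Figure D3:**
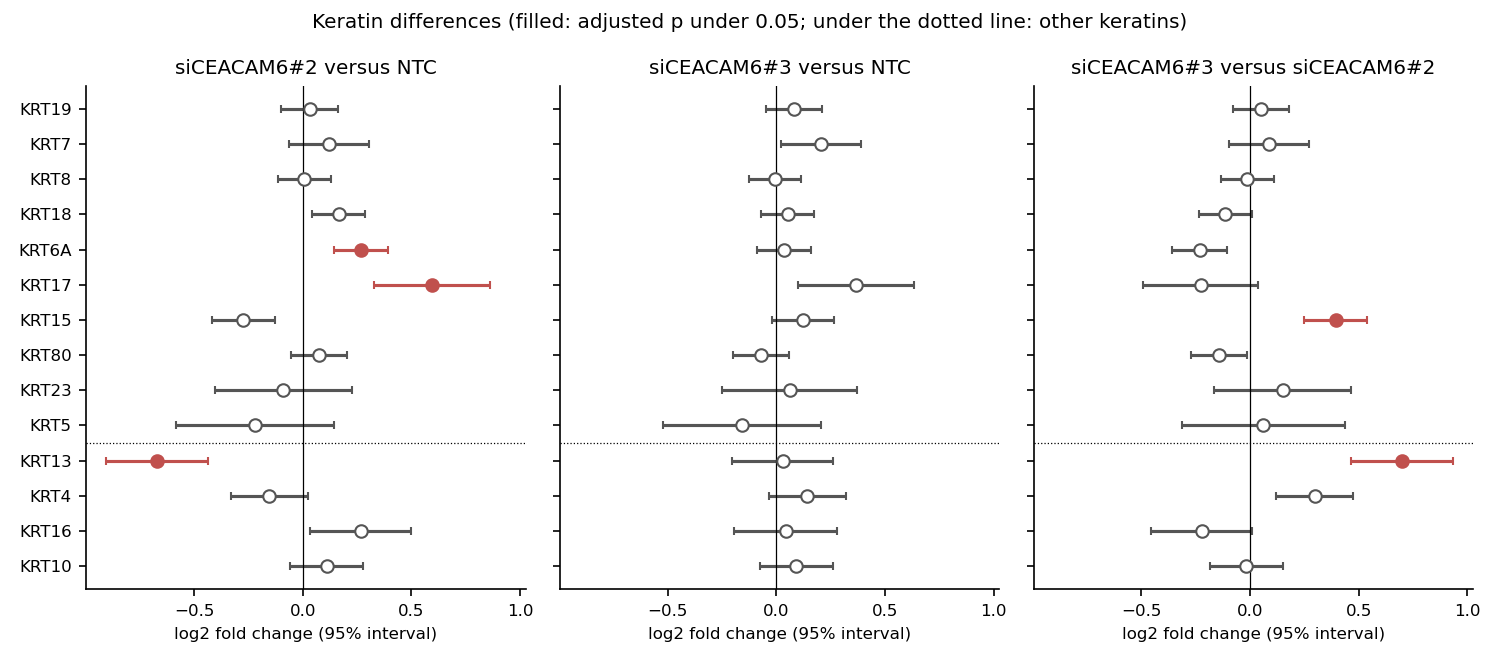
Log2 fold changes (horizontal axes, limma-voom) of the 10 keratins and, under the dotted line, of 4 other keratins, with 95% intervals, in the 3 comparisons. Filled points passed an adjusted p of 0.05: KRT6A, KRT17 and KRT13 against NTC on the left, no keratin in the middle, and KRT15 and KRT13 on the right.

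**Figure D4:**
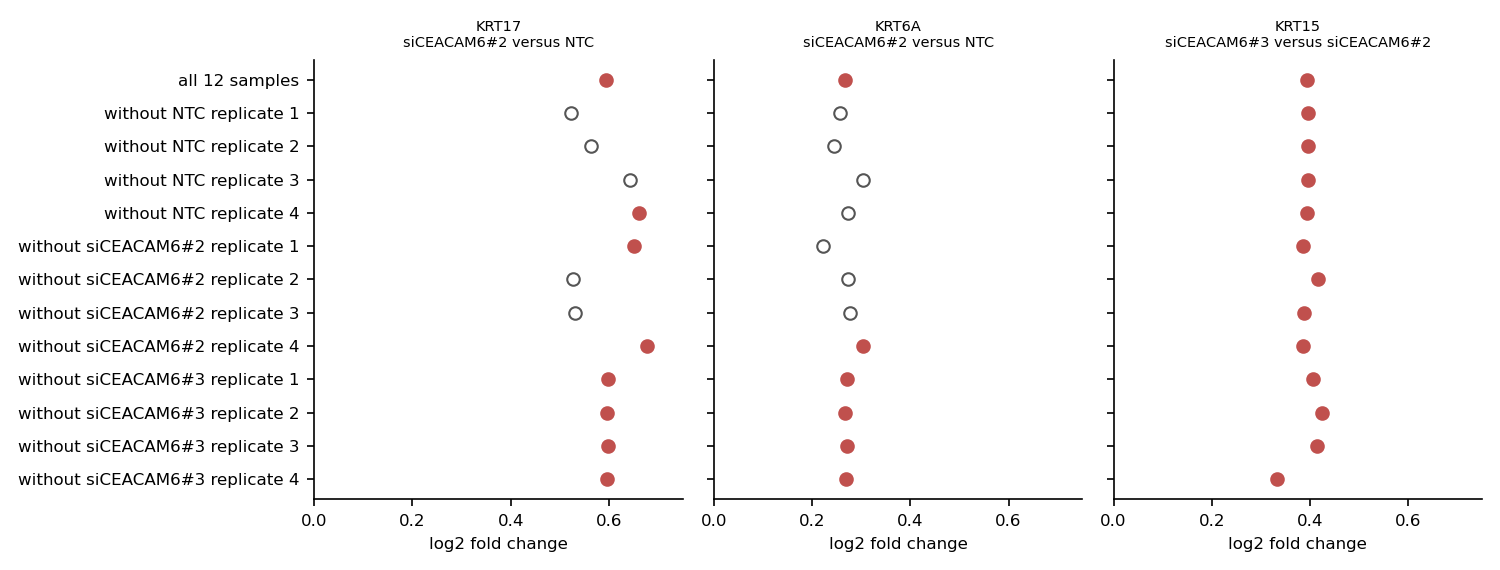
Log2 fold changes (horizontal axes) of the 3 calls among the 10 keratins with all 12 samples and with each sample left out in turn; filled points passed an adjusted p of 0.05. KRT15 is filled in every row, KRT17 in 7 and KRT6A in 5 of the 12 rows that leave out a sample.

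Keratin pairs and neighbours were then set side by side. KRT8 and KRT18, which form the main filament of simple epithelium, lie head to head on chromosome 12 at 52897187 to 52949954 and 52948871 to 52952906 (GRCh38). The ratio of KRT18 to KRT8 in TPM was 0.673 to 0.687 in the NTC samples, 0.735 to 0.781 under siCEACAM6#2 and 0.679 to 0.727 under siCEACAM6#3. The siCEACAM6#2 range lay above both others, and no test was made of this ratio. The annotated loci overlap by 1084 bases on opposite strands. Whether the counting used strand is not stated in the sources used here, so reads from the overlap cannot be assigned with certainty.

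KRT15 lies between KRT13 and KRT19 in the type I cluster of chromosome 17 (KRT13 at 41500981 to 41505705, KRT15 at 41513745 to 41522529, KRT19 at 41523617 to 41528308). KRT13, a type I keratin of internal stratified epithelia such as the oesophagus, was at 602, 575, 641 and 565 CPM in NTC, at 460, 378, 323 and 350 CPM with siCEACAM6#2, and at 653, 494, 570.1 and 740.0 CPM with siCEACAM6#3. Each siCEACAM6#2 sample was below every sample of both other groups. KRT13 fell with siCEACAM6#2, by 0.67 on the log2 scale (SE 0.11, adjusted p = 0.00701), and it was 0.70 higher with siCEACAM6#3 than with siCEACAM6#2 (SE 0.11, adjusted p = 0.00660). Both calls held in all 12 fits with a sample left out and were lost in fits of log2 TPM. KRT15 was lowest in the same group as KRT13, while KRT19, which lies 1087 bases from KRT15, had a log2 fold change of 0.03 with siCEACAM6#2 (adjusted p = 0.887). The ratio of KRT17 to KRT13 in TPM was 0.423 to 0.684 in NTC, 0.932 to 1.71 under siCEACAM6#2 and 0.531 to 1.09 under siCEACAM6#3. Both are type I chains. With siCEACAM6#2 KRT17 was called higher and KRT13 lower, so the gap to NTC in this ratio restates those calls.

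KRT7 and KRT17 were high in the same samples. Within siCEACAM6#2, replicates 2 and 3 were at 2440 and 2349 CPM of KRT7 and replicates 1 and 4 both at 1983 CPM, which is the split seen for KRT17. Within siCEACAM6#3, replicate 2 was the highest for both. In NTC, replicates 3 and 4 were above replicates 1 and 2 for both. In each group these were also the samples with the larger mitochondrial shares (12.9 and 12.6% against 12.2 and 11.8% in NTC), and the part of this in either keratin was not tested. KRT7 overlaps an antisense transcript, KRT7-AS, at 52245048 to 52247448 of chromosome 12 inside the KRT7 locus (52232520 to 52252186). KRT7-AS was at most at 22.2 CPM in NTC, at 17.1 to 29.4 CPM under siCEACAM6#2 and at most at 40.0 CPM under siCEACAM6#3, and its highest sample was again siCEACAM6#3 replicate 2. The labels describe strand-specific paired-end libraries and the methods of the study single-end ones, and neither states whether the counting used strand. Reads of KRT7 and KRT7-AS cannot be told apart with certainty.

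**Figure D5:**
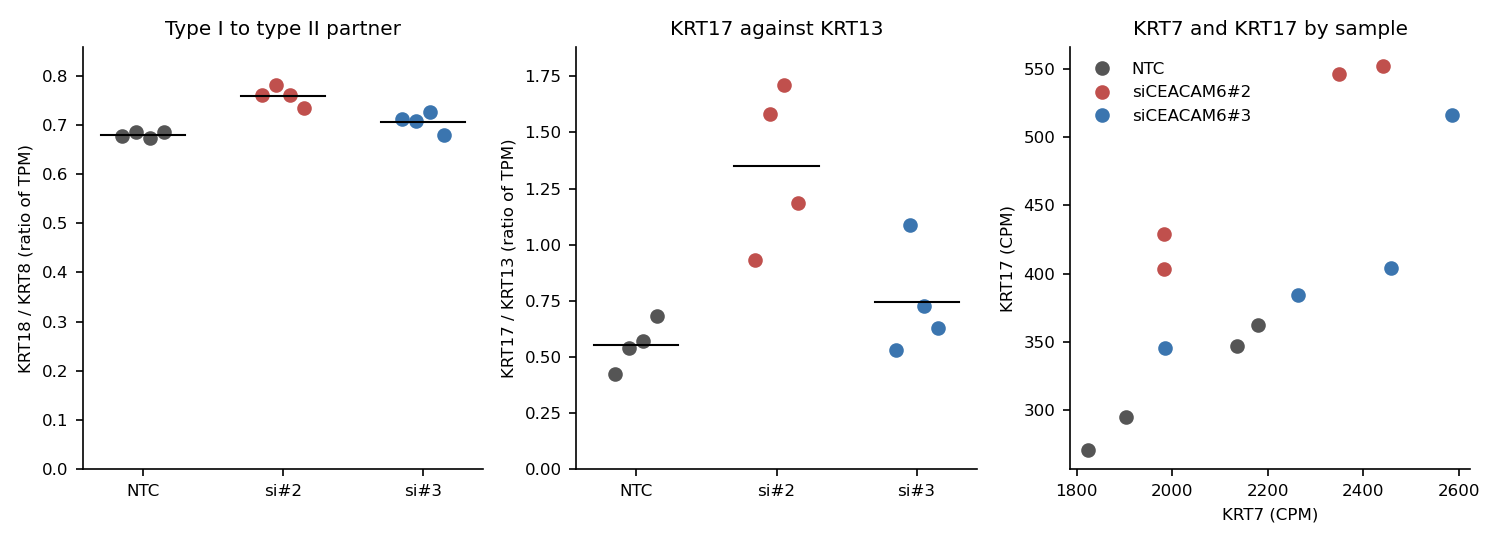
Ratio of KRT18 to KRT8 and of KRT17 to KRT13 in TPM by sample (left and centre, the line is the mean of 4), and CPM of KRT17 against KRT7 in the 12 samples (right, axes not from 0). The siCEACAM6#2 samples lie above all NTC samples in both ratios (0.735 or more against 0.687 or less, and 0.932 or more against 0.684 or less). In the centre this gap restates the calls of KRT17 (higher) and KRT13 (lower) and is not a further result. On the right KRT17 is higher where KRT7 is higher within each group.

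Several members share sequence with other genes, which limits how surely their reads were assigned. Of the 31-base words in the canonical transcript of KRT6A, 52.7% also occur in another gene, 45.8% in KRT6C and 40.5% in KRT6B. For KRT17 it was 37.7%, for KRT8 59.8% and for KRT18 66.9%, mostly in pseudogenes, while KRT7, KRT15 and KRT80 shared at most 5.41% and KRT23 0%. The copies themselves received few counts. KRT6A held 99.3 to 99.5% of the counts of KRT6A, KRT6B and KRT6C together, KRT17 held 89.8 to 93.4% of its sum with 16 copies, and KRT8, KRT18 and KRT19 held at least 99.4% of theirs. The values of KRT6A, KRT8, KRT17 and KRT18 are therefore uncertain to the extent that counts were split among copies.

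Of the 44 other keratin genes, 14 had enough reads to be tested, 5 had no count in any sample, and 4 had a mean of at least 10 TPM in some group. These were KRT4 (916 ± 52.9 TPM in NTC), KRT13 (569 ± 50.9 TPM), KRT10 (31.5 ± 2.25 TPM) and KRT16 (13.2 ± 1.78 TPM). KRT4, the type II partner of KRT13, had a log2 fold change of -0.15 with siCEACAM6#2 (adjusted p = 0.452) and was 0.30 higher with siCEACAM6#3 than with siCEACAM6#2 without passing in limma-voom (adjusted p = 0.0985). This difference did pass with DESeq2 (adjusted p = 0.0220), with sample weights (adjusted p = 0.0162) and without siCEACAM6#3 replicate 2 (log2 difference 0.38, adjusted p = 0.0157), in a range of 0.0157 to 0.269 over all alternatives. KRT16, a partner of KRT6A, had 0.27 with siCEACAM6#2 (adjusted p = 0.286), and KRT10, a type I keratin of the upper epidermis, had 0.11 (adjusted p = 0.60). Among the less abundant keratins, KRT75 of the hair follicle rose with siCEACAM6#2 by a log2 fold change of 0.95 (adjusted p = 0.0273), from a mean of 2.36 CPM in NTC. KRT6C was lower with siCEACAM6#3 than with siCEACAM6#2 by a log2 difference of -0.51 (adjusted p = 0.0380), at 11.7 and 8.37 CPM. These last 2 were named after their values were seen. With siCEACAM6#3 against NTC, 0 of the 14 passed the limma-voom test, and 0 did so with DESeq2 or edgeR, while 1 had an unadjusted p under 0.05.

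Genes that hold keratin filaments in place or switch keratin genes on were described by counts. Beside these stand the calls over all 17620 tested genes with limma-voom, DESeq2 and edgeR. They were 221, 534 and 254 with siCEACAM6#2 against NTC, and 12, 220 and 13 with siCEACAM6#3 against NTC. Between the siRNAs they were 259, 556 and 276. An unadjusted p under 0.05 was found in 12.5% of tested genes with siCEACAM6#3 against NTC. For the other comparisons this share is not given here, so their counts of unadjusted p under 0.05 stand without it and are descriptions only. Of 19 tested genes for anchors and linkers (desmosomal and hemidesmosomal proteins and plakins), 1 rose with siCEACAM6#2 in limma-voom (DESeq2 called 2 and edgeR 1), and 0 passed in either of the other comparisons, where 5 each had an unadjusted p under 0.05 and DESeq2 called 2 each and edgeR 0. It was COL17A1, a hemidesmosomal collagen, at 90.8 ± 6.03 CPM in NTC and 131 ± 7.95 CPM with siCEACAM6#2 (SD, n = 4), a log2 fold change of 0.52 (SE 0.06, adjusted p = 0.00124). Of 14 tested transcription factors known to act on keratin genes, 1 passed with limma-voom under siCEACAM6#2, and 5 were higher at an unadjusted p under 0.05. DESeq2 called 4 of the 14, all higher, and edgeR 1. The limma-voom call was KLF4, which rose from 110 ± 1.98 to 139 ± 5.87 CPM (log2 fold change 0.33, SE 0.05, adjusted p = 0.00434). KLF4 was lower with siCEACAM6#3 than with siCEACAM6#2, at 109 ± 3.72 CPM (log2 difference -0.34, adjusted p = 0.00189). With siCEACAM6#3 against NTC 0 of the 14 passed with limma-voom, DESeq2 or edgeR, and 2 had an unadjusted p under 0.05. TP63, the regulator of basal keratins, had 0.19 with siCEACAM6#2 (adjusted p = 0.137). Of 12 tested intermediate filament genes outside the keratins, NEFM rose with siCEACAM6#2 (log2 fold change 0.48, adjusted p = 0.0352), and NEFM and LMNA were lower with siCEACAM6#3 than with siCEACAM6#2 (log2 differences -0.81 and -0.25, adjusted p = 0.00189 and 0.0205). VIM, the mesenchymal filament, was at 1.82 TPM in NTC. Against NTC, siCEACAM6#3 gave 0 limma-voom calls among the 12, 0 with edgeR and 2 with DESeq2, with 5 at an unadjusted p under 0.05. Of 11 tested genes of stratified differentiation 0 passed in any comparison with limma-voom, DESeq2 or edgeR, and 3 (siCEACAM6#2 against NTC), 2 (siCEACAM6#3 against NTC) and 4 (between the siRNAs) had an unadjusted p under 0.05. Among markers of cell types, limma-voom called VWF lower with siCEACAM6#2 than in NTC (log2 fold change -0.44, adjusted p = 0.0419). There DESeq2 and edgeR each called 1 of 3 tested endothelial markers lower, and DESeq2 1 of 6 epithelial markers higher. MUC1 and CDH5 were called higher by limma-voom with siCEACAM6#3 than with siCEACAM6#2 (log2 differences 0.53 and 1.31, adjusted p = 0.0247 and 0.0160). In that comparison DESeq2 called 0 of the 3 endothelial and 2 of the 4 tested biliary markers, and edgeR 1 of each. VWF and CDH5 were at 1.68 and 0.70 TPM in NTC.

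For the 3 members with the smallest adjusted p, the genes most alike in level were found among 9886 genes with a mean of at least 10 CPM, by Pearson correlation of log2 CPM over the 12 samples. For KRT17 they were OVOL1 (r = 0.979), IRF1 (r = 0.977) and TMEM40 (r = 0.970). For KRT6A they were HYOU1 (r = 0.952), SPINK5 (r = 0.951) and NFKBIA (r = 0.919), and for KRT15 TP53TG1 (r = 0.942), DENND2D (r = 0.924) and BRD3 (r = 0.914). The 12 points share 3 groups and are the best of many genes, so these values are descriptions.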

How the data were processed

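Total RNA of SNU308 cells was extracted in 12 samples, and by the methods of the study mRNA was enriched with oligo dT beads before sequencing. Per the labels, the authors trimmed reads with Trim Galore 0.6.4 and quantified transcripts with kallisto 0.4.6 against GRCh38.p13 (versions from the submitters' processing notes), and deposited 1 table of estimated counts and 1 table of TPM per sample. The word length used by kallisto and any strand setting are not given in the sources used here. Estimated counts were rounded to whole numbers, genes were kept by filterByExpr (17620 tested), scaled by TMM and fitted with limma-voom (limma 3.58.1, edgeR 4.0.16, R 4.3.3) over all 12 samples. Tests were two-sided, with Benjamini-Hochberg adjustment over all tested genes and calls at an adjusted p under 0.05. CPM are TMM-scaled. The deposited TPM was used for levels between genes. Gene identifiers were matched to symbols for 60357 of 60617. The 10 keratins and the other lists were chosen with earlier results of these data known. Named genes were all 10 members, other keratins with a mean of at least 10 TPM in a group, and called genes of the other lists. Alternatives were DESeq2 1.42.0, edgeR's quasi-likelihood test, other filters and scalings, sample weights, log2 TPM, a replicate block, 2 groups only and each sample left out. On simulated counts for siCEACAM6#2 against NTC (17393 genes, 200 changed by 1 on the log2 scale), 90.5% of changed genes were recovered, and 3.72% of called genes were false. The largest keratin change in that comparison was 0.59, so this recovery does not describe changes of the size seen in the keratins. The submitters describe 4 individual experiments. Nothing links a replicate number to an experiment, so p-values measure the spread between these samples.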

Additional observations from a re-analysis of the deposited data

Results flagged for a closer look

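In groups of 4, a single sample stood apart from the others in 3 of the 30 combinations of keratin and group, where the gap to the nearest sample took up most of the range of the group. Chance flags about 1 in 20 groups, and the 30 combinations are not independent. KRT8 and KRT18, for example, moved together within groups (r = 0.93). Whether 3 flags are more than chance gives was not tested. KRT8 in siCEACAM6#3 replicate 4 was at 2257 CPM, above the other 3 samples, which were at 1962 to 1984 CPM. KRT18 in the same sample was at 1107 CPM, above the 1013 to 1029 CPM of the others. KRT15 in siCEACAM6#2 replicate 2 was at 109 CPM, while the other 3 were all at 103 CPM. KRT15 was also the keratin whose effect differed between the siRNAs in a direct test, with a log2 difference of 0.39 between siCEACAM6#3 and siCEACAM6#2 (adjusted p = 0.00900, limma-voom).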

How the results depend on the processing

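Of 675 alternative values for the 30 keratin results, 616 kept their direction and side of the threshold, 18 lost a call, 11 gained one and 30 changed sign, the last all within 0.14 of 0. In siCEACAM6#2 against NTC the 2 called keratins became 0 with log2(TPM + 1) and 0 with log2(TPM + 0.1), and 0 to 3 with 1 sample left out. In siCEACAM6#3 against siCEACAM6#2 the 1 call became 2 with DESeq2, library size only, no filter and sample weights, 0 in both TPM fits, and 1 to 2 with 1 sample left out. The cause was not tested. Genes called in siCEACAM6#2 against NTC were 534 with DESeq2, 1120 with sample weights, 5 and 6 with the TPM fits, 600 with the 2 groups alone, and 49 (without siCEACAM6#2 replicate 3) to 364 (without siCEACAM6#3 replicate 4) with 1 sample left out. In siCEACAM6#3 against NTC they were 220 with DESeq2, 24 with no filter, 382 with sample weights, 4 and 4 with TPM, and 2 (without siCEACAM6#3 replicate 3) to 258 (without siCEACAM6#3 replicate 1) with 1 sample left out. In siCEACAM6#3 against siCEACAM6#2 they were 556 with DESeq2, 560 with sample weights, 49 and 53 with TPM, 57 with the 2 groups alone, and 83 (without siCEACAM6#2 replicate 3) to 651 (without siCEACAM6#3 replicate 1).

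KRT15 in siCEACAM6#2 against NTC became a call with DESeq2, with sample weights, with the 2 groups alone, and without NTC replicate 4 or siCEACAM6#3 replicate 2 or 4. Summing KRT6A, KRT8, KRT17, KRT18 and KRT19 with their copies changed no call. With the replicate number as a block, siCEACAM6#3 against NTC had 87 called genes and no keratin call changed. Correlations of deviations from group means ran from -0.056 to 0.20 (median 0.0099) for 12 same-numbered pairs. For 36 others they ran from -0.23 to 0.16 (median -0.019). The ranges overlap, so they cannot decide whether the numbers pair the samples.

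Sign changes with siCEACAM6#2 were KRT8 (-0.0046 with library size only, -0.0061 with sample weights, -0.019 with both TPM fits), KRT19 (-0.00020 with both) and KRT23 (0.11 and 0.14). With siCEACAM6#3 against NTC they were KRT6A (-0.016 and -0.017 with the TPM fits) and KRT18 (-0.0044 with both), and between the siRNAs KRT23 (-0.093 and -0.12). With 1 sample left out, KRT8 ranged from -0.023 to 0.040 and from -0.056 to 0.028 against NTC, and from -0.064 to 0.021 between the siRNAs. KRT23 ranged from -0.031 to 0.20 with siCEACAM6#3 against NTC, and between the siRNAs KRT5 ranged from -0.015 to 0.17 and KRT19 from -0.017 to 0.086.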
